A study of Mus musculus with 17 samples.

Results

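The members described here are 10 genes of the machinery that takes a cell from the G1 phase of the cell cycle into DNA synthesis, namely Ccnd1, Ccnd2, Ccnd3, Cdk4, Cdk6, Cdk2, Cdkn1b, Cdkn1c, Cdkn2c and Rb1. They were chosen by symbol, with earlier results of these data known, as 10 of the 26422 genes listed in the count tables. All 10 passed the filter on low counts in whole organoids. Their mRNA was followed by Seq-Well S3, in which cells are caught with barcoded beads in small wells and transcripts are counted by unique molecular identifiers (UMIs).

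Small-intestinal organoids were grown from crypts of male and female wild-type C57BL/6 mice between 1 and 6 months of age. At day 0 they were in ENR+CV, a medium with EGF, noggin and R-spondin (ENR) plus the Wnt activator CHIR99021 and valproic acid, which enriches for stem cells. They were then moved to ENR+CD, in which the Notch inhibitor DAPT replaces valproic acid and which drives cells towards the Paneth lineage, either alone (control) or with 160 nM KPT-330 (selinexor), an inhibitor of the nuclear exporter XPO1. Each of the 17 libraries pooled cells of more than 1000 organoids: 2 at day 0, 7 of control and 8 with KPT-330 at 6 hours (day 0.25) and on days 1, 2, 3, 4 and 6. Day 6 had 2 libraries per condition and day 3 had 2 with KPT-330, and all others stood alone. The 6 hour and day 1 libraries carry replicate number 1, and those of day 2, the day 3 control and day 4 carry number 2. In courses over days, a step between day 1 and day 2 therefore cannot be told apart from this change of number. The labels do not say whether libraries with replicate numbers 1 and 2 came from separate cultures, so the spread between them may be technical. For day 6 against day 0, p-values measure that spread. For KPT-330 against control they mostly measure how far the difference varied over days, since most days had 1 library per condition.

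Cells commit to division in G1. D-type cyclins, which growth signals induce, switch on CDK4 and CDK6, and these kinases, followed by CDK2 with cyclin E, phosphorylate the retinoblastoma protein Rb and release E2F transcription factors that switch on DNA replication genes. Inhibitors of the INK4 family, such as p18 (Cdkn2c), hold CDK4 and CDK6 inactive, while the Cip/Kip inhibitors p27 (Cdkn1b) and p57 (Cdkn1c) bind cyclin-CDK complexes more broadly. In the intestine, crypt stem and progenitor cells cycle, and Paneth, enteroendocrine and enterocyte cells have left the cycle.

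Over the 19877 cells analysed, libraries held 3458887 to 12433109 UMIs, and the median cell had 2676 to 8463 UMIs. The 17 markers of stromal, immune and endothelial cells summed to 0.0832 to 0.730 UMIs per 10000, against 37.8 to 54.2 for 7 epithelial markers, so that epithelial markers dominated, as labelled. At 0 in all libraries of a condition were Col3a1, Dcn and Ptprc in ENR+CV, Lum in control and Cd3e with KPT-330. Between libraries, 14 barcode sequences were shared, covering 28 cells. Clusters were named from marker genes after the members and their pathway genes had been taken out of the clustering, and 3 clusters stayed unnamed. The 2 large ones are called by their leading genes, Clca3/Muc2 and Fabp1/Ces1f, and the third held 48 cells and entered no comparison. Exons of 8 of the 10 members overlap a gene on the opposite strand in the GENCODE annotation (Tspan31 at Cdk4 and Pmel at Cdk2, for example). The sources used here do not say whether counting used strand, so those reads cannot be told apart.

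The first comparison asked how the G1 machinery changed as stem-enriched organoids differentiated for 6 days without drug; medium and time changed together and cannot be told apart. Of the 10 members, 5 fell and 1 rose between day 0 and day 6 of control. That is 6 of 10, against 39.9% of the 13455 genes tested, in edgeR's quasi-likelihood test at a Benjamini-Hochberg adjusted p of 0.05. The 3 D cyclins, Cdk2 and Cdkn2c fell and Cdkn1c rose, while Cdk4, Cdk6, Cdkn1b and Rb1 did not pass. Levels are counts per 1000000 UMIs of a library (CPM), scaled by edgeR's TMM factors, and each was compared only with the same gene in other libraries.

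Ccnd1 (chr7:144929931-144939925, minus strand, GRCm38) encodes cyclin D1, the D cyclin most closely tied to Wnt and mitogen signals. It stood at 135 and 160 CPM in the ENR+CV libraries and at 27.7 and 27.0 in the day 6 controls. Both day 6 libraries lay far below both day 0 libraries, with a log2 fold change of −2.48 ± 0.26 (SE; edgeR, adjusted p = 5.55e-05). The fall came early, with 93.4 after 6 hours, 65.4 on day 1, 33.6 on day 2 and 16.3 on day 3. Ccnd2 (chr6:127125162-127152193, minus), cyclin D2, went from 684 and 868 CPM to 399 and 307. Its ranges did not overlap either, and the fold change was −1.19 ± 0.23 (edgeR, adjusted p = 0.0021). Ccnd3 (chr17:47505051-47599691, plus), cyclin D3, went from 36.8 and 49.5 to 27.3 and 29.7 CPM, a smaller step of −0.66 ± 0.21 (edgeR, adjusted p = 0.0267). Unlike the other D cyclins it was lowest at 6 hours, at 14.03, and higher in every later control. Its call was lost in 3 of the 4 fits that left out 1 of the day 0 and day 6 libraries (adjusted p up to 0.186 without ENR+CV replicate 2), and with DESeq2 (0.118) and a linear trend over days (0.638).

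The kinases parted ways. Cdk2 (chr10:128697939-128705031, minus), the partner of cyclins E and A at the start of DNA synthesis, went from 38.6 and 34.9 CPM at day 0 to 16.5 and 17.0 in the day 6 controls. The ranges lay well apart, and the log2 fold change was −1.19 ± 0.18 (edgeR, adjusted p = 0.000525). Cdk4 (chr10:127063534-127067920, plus), a partner of the D cyclins, stood at 262 and 394 CPM at day 0 and at 294 and 379 in the day 6 controls. These ranges overlapped almost whole, with a fold change of −0.011 ± 0.26 (edgeR, adjusted p = 0.978). Cdk6 (chr5:3341485-3531008, plus), the other D cyclin kinase, stood at 29.6 and 50.2 against 62.2 and 65.2. It was higher in both day 6 libraries, but the fold change of 0.61 ± 0.24 did not pass (edgeR, adjusted p = 0.0602). It did without ENR+CV replicate 2 (1.01, adjusted p = 0.0204), without the filter on low counts (0.00981) and as a linear trend (0.0434), over a range of 0.00981 to 0.378.

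Among the inhibitors, Cdkn1c (chr7:143458339-143461050, minus), which encodes p57, rose from 6.84 and 10.6 CPM at day 0 to 47.1 and 59.7 in the day 6 controls. This was a mean 6.13-fold higher level with no overlap, and a fitted log2 fold change of 2.52 ± 0.40 (edgeR, adjusted p = 0.000665). In between it climbed at each sampled day, from 6.50 at 6 hours to 14.6, 26.3, 46.7 and 50.4 on days 1, 2, 3 and 4. Cdkn2c (chr4:109660876-109667189, minus), which encodes p18, moved the other way, from 25.1 and 16.7 to 4.28 and 7.22 CPM. Its fold change was −1.97 ± 0.40 (edgeR, adjusted p = 0.00289), and without control replicate 1 of day 6 it was −1.56 with an adjusted p of 0.0512 in edgeR. Cdkn1b (chr6:134920401-134925513, plus), which encodes p27, stood at 86.1 and 111 at day 0 and at 102 and 89.9 on day 6, a difference of −0.090 ± 0.19 (edgeR, adjusted p = 0.733). Rb1 (chr14:73183673-73325822, minus), the pocket protein that D cyclin kinases phosphorylate, stood at 28.4 and 19.7 against 19.6 and 12.5. The day 6 libraries lay lower, but the difference of −0.59 ± 0.29 did not pass (edgeR, adjusted p = 0.125).

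**Figure D1:**
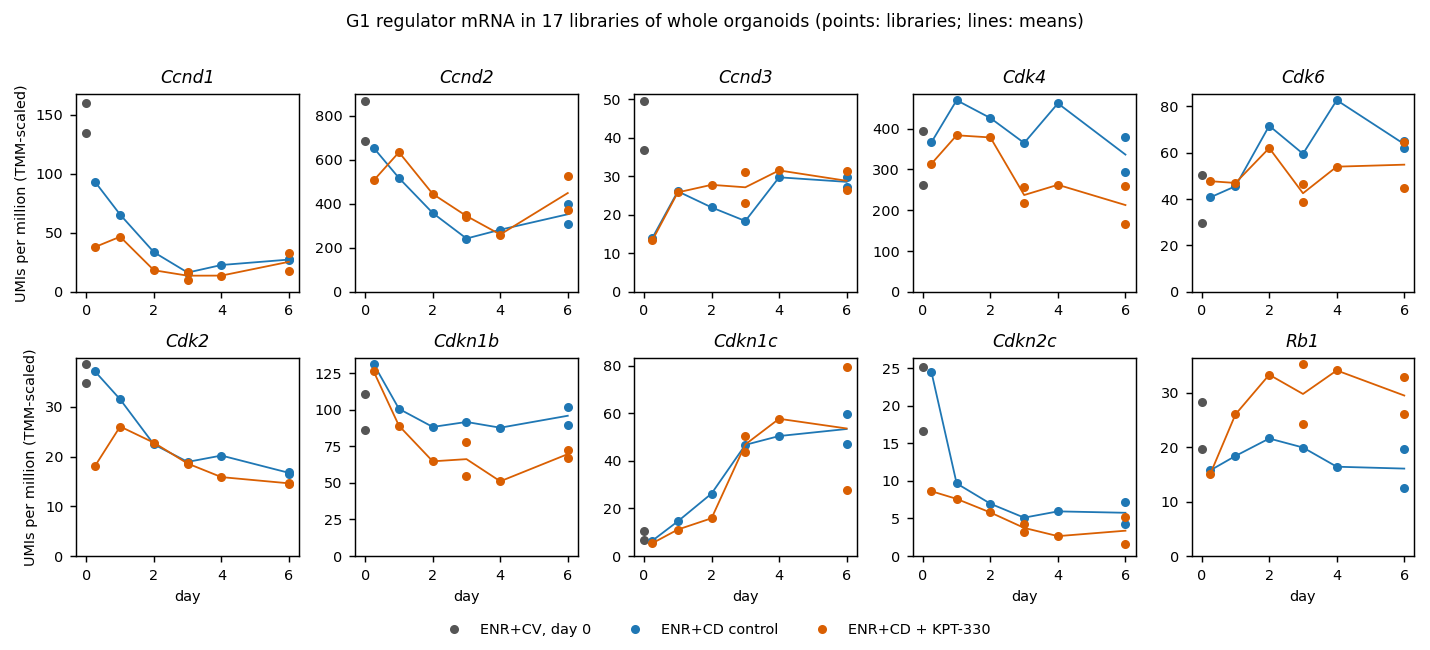
Each panel plots 1 gene, with the day on the x axis and TMM-scaled CPM on the y axis, which starts at 0; points are single libraries and lines join the means of the libraries of a day. In control, Ccnd1, Cdk2 and Cdkn2c lie lower on day 6 than at day 0 and Cdkn1c lies higher. Rb1 lies higher with KPT-330 than in control from day 1 on.

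The rest of the pathway was read from lists of genes. Like the members, these lists were chosen with earlier results of these data known, so their counts are descriptions. Of 31 replication genes that E2F factors are known to control, 31 were lower in the day 6 controls than at day 0 and none rose, with a median log2 fold change of −1.84, where the median over all genes tested was 0.0055. The smallest p-values were those of Gmnn (−1.82), an inhibitor of replication licensing, Rrm2 (−2.66), a ribonucleotide reductase subunit, and Chaf1b (−2.10), a histone chaperone. Of 40 other G1/S regulators tested, 20 fell and none rose, against 39.9% of all genes called, with a median of −0.61. E2f2 (−2.42), E2f8 (−3.02) and Skp2 (−2.33), which marks p27 for destruction, led them.

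The members did not move as one over the 17 libraries, and the correlations that follow are descriptions of log2 CPM over libraries that share conditions and days. Cdk2 followed Pcna (Pearson's r = 0.956), the replication clamp, more closely than any gene outside the members, and Cdkn2c followed Kif24 (0.969), Ncapd3 (0.956) and Tubg1 (0.952). Ccnd1 was closest to Mtap (0.977) and Ccnd2 to Plek2 (0.942). Cdkn1c was closest to Kcnh6 (0.975), Rundc3a (0.969) and Gng4 (0.967). Within the group, Cdk2 and Cdkn2c had r = 0.875, Ccnd1 and Ccnd2 had 0.859, and Cdkn1c and Ccnd2 had −0.825. Cdkn1b and Rb1 ran opposite to each other, at −0.805.

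Because Cdk2 tracked a replication gene, the promoter of Cdk2 was read from RefSeq (build GRCm38.p6, chr10:128705002-128705301, minus strand, 250 bases before to 50 after the start) and searched on both strands for 4 E2F-type octamers, TTTCCCGC, TTTGGCGC, TTTGCCGC and TTTCGCGC. One match was found, to TTTCCCGC on the strand opposite to the gene, and its letters as read on the gene's strand are in capitals.

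Cdk2: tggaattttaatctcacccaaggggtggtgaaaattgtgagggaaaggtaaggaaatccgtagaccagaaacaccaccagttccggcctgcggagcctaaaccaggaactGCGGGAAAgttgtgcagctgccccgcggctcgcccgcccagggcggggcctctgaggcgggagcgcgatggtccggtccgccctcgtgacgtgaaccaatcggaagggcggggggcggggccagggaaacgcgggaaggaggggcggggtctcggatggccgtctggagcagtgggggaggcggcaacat

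Of 32851 promoters of this length, 744 held at least 1 of the 4 octamers, and of 31 promoters of the E2F-controlled replication genes 12 did. The table held 8 promoters of 6 members (Ccnd3, Cdk4, Cdk6, Cdk2, Cdkn1b and Cdkn2c), and of these the Cdk2 promoter alone had a match. A match is a description of letters and not a binding site.

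The levels across cell types are given for the 9 libraries without KPT-330, as UMIs per 10000 UMIs of a type's cells, in types with at least 20 cells in a library. These values are descriptions, since the types were built from these same cells, and the types were found in different libraries, so that a mean also mixes days. Differences between neighbours in the order were therefore taken within shared libraries. Ccnd1 was highest in stem II-like cells, at 1.44 ± 0.72 (SD, 8 libraries), where it lay above the other cells of the library in 8 of 8. Early enterocyte-like cells (1.36 ± 0.49, 5 libraries), early secretory-like cells (1.14 ± 0.76, 4 libraries) and stem III-like cells (0.906 ± 0.502, 9 libraries) came next, and no neighbours among these 4 differed beyond their spread. Stem I-like cells were near the bottom at 0.188 ± 0.108 (6 libraries), below the other cells in 6 of 6, and enterocyte-like cells held 8 Ccnd1 UMIs in 5 libraries. Ccnd2 was highest in early enterocyte-like cells, at 13.97 ± 2.84 (5 libraries), and was above early secretory-like cells (8.76 ± 6.08) in 4 of 4 shared libraries, by 0.85 ± 0.53 on the log2 scale. Stem II-like cells held 8.09 ± 1.84 and enterocyte-like cells were lowest at 1.04 ± 0.52. Ccnd3 was flat, from 0.347 ± 0.138 in stem II-like to 0.202 ± 0.202 in early Paneth-like cells.

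Cdk4 was spread over the stem and enteroendocrine compartments, with 6.83 ± 1.12 in stem I-like (6 libraries), 6.68 ± 2.17 in stem III-like (9 libraries), 6.53 ± 2.36 in stem II-like (8 libraries) and 5.40 ± 1.52 in enteroendocrine-like cells (8 libraries). In shared libraries stem I-like cells were above stem III-like cells in 1 of 6, with a mean log2 difference of −0.20 ± 0.18, against the order of the means. The later neighbours among these types did not differ beyond their spread. Early secretory-like cells came next at 5.23 ± 1.44 (4 libraries), and enteroendocrine-like cells were above them in 4 of 4 shared libraries, by 0.32 ± 0.19 (log2). Enterocyte-like cells were lowest at 0.702 ± 0.150. Cdk6 was highest in stem I-like cells, at 1.60 ± 0.50, above the other cells in 6 of 6 libraries, with stem II-like cells at 0.960 ± 0.375 and a paired difference of 0.53 ± 0.72 (log2, 5 libraries), within its spread. Cdk2 was highest in stem III-like cells, the cells led by the mitotic genes Mki67 and Top2a, at 0.595 ± 0.126. It was above the other cells in 9 of 9 libraries and above stem II-like cells (0.453 ± 0.113) in 6 of 8, by 0.38 ± 0.37. Enterocyte-like cells had 10 Cdk2 UMIs over 5 libraries.

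Of the 3 inhibitors, Cdkn2c was highest in stem III-like cells and both Cdkn1c and Cdkn1b in enteroendocrine-like cells. Cdkn2c stood at 0.411 ± 0.131 in stem III-like cells, above the other cells in 9 of 9 libraries and above stem II-like cells (0.160 ± 0.083) in 8 of 8, by 1.39 ± 0.84 on the log2 scale. Cdkn1c stood in enteroendocrine-like cells at 1.13 ± 0.72 (8 libraries), above the other cells in 8 of 8. Stem I-like cells followed with 0.680 ± 0.757 (6 libraries), from 0 in the day 1 control to 1.90 in control replicate 2 of day 6, and every other type lay at 0.189 or less. Cdkn1b stood there at 1.92 ± 0.57, with stem III-like cells at 1.42 ± 0.21 and a paired difference of 0.35 ± 0.56 (8 libraries), within its spread. Rb1 had its highest mean in the Fabp1/Ces1f cluster (0.307 ± 0.064, above the other cells in 7 of 7 libraries), with 0.2999 ± 0.0938 in enterocyte-like and 0.253 ± 0.110 in enteroendocrine-like cells. It stood at 0.195 ± 0.077 in stem III-like and at 0.122 ± 0.018 in stem I-like cells. No neighbours in the order of Rb1 differed beyond their spread where at least 2 libraries were shared.

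How cells were labelled bore on these orders. With cells labelled by their highest marker score, clustered on log-normalized counts or clustered at resolution 0.8, 63.9%, 65.6% and 76.2% of cells kept their type. The type with the highest mean was the same in all 3 for Ccnd2, Cdk4, Cdk6, Cdk2, Cdkn1b, Cdkn1c and Cdkn2c. That of Ccnd1 became goblet-like cells by marker score and early enterocyte-like cells with log-normalized clustering. That of Ccnd3 became early secretory-like cells by score and stem III-like cells in the other two, and that of Rb1 became enteroendocrine-like cells by score and enterocyte-like cells in the other two.

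**Figure D2:**
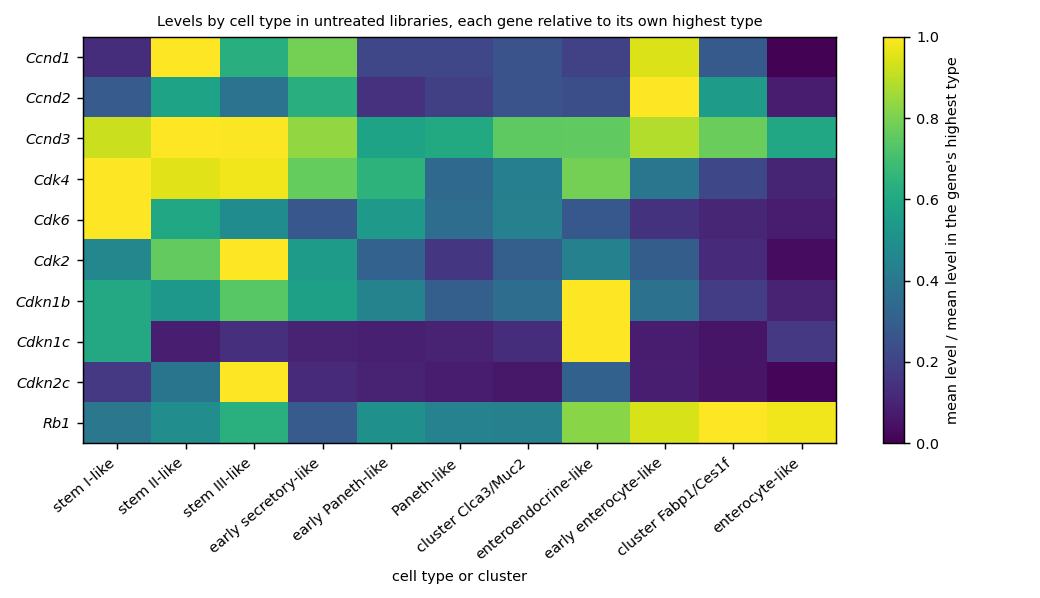
The heat map shows, for each gene (rows), the mean level in 11 cell types or clusters (columns) of the libraries without KPT-330, divided by that gene's own highest mean, on a linear scale from 0 to 1. Cdkn2c is brightest in stem III-like cells and Cdkn1c in enteroendocrine-like and stem I-like cells, while Rb1 is brightest in the Fabp1/Ces1f cluster, a place it loses with each of the other labellings.

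The second comparison asked how KPT-330 changed these genes, over 7 control and 8 KPT-330 libraries with a term for time point. Ccnd1, Cdk4, Cdkn1b and Cdkn2c were lower and Rb1 was higher with KPT-330. This is 5 of 10 members, against 28.6% of the 12812 genes tested (1841 higher and 1820 lower). With counts scaled by library size alone the median log2 fold change of all genes moved from −0.0023 to −0.27, and 470 genes were higher and 4900 lower. The TMM-scaled values that follow are relative to the bulk of genes. This comparison and those after it share control libraries with each other, and the day 6 controls with the first. In summed counts of whole organoids, fewer cells of a type and less RNA per cell cannot be told apart.

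Ccnd1 ranged from 16.3 to 93.4 CPM in control (median 27.7) and from 10.3 to 46.7 with KPT-330 (median 18.2). The ranges overlapped across days, but within days the KPT-330 mean was the lower at 6 of 6 time points, by 0.16 (day 6) to 1.30 (6 hours) on the log2 scale. On day 3 the KPT-330 libraries held 17.1 and 10.3 against 16.3 in control. On day 6 they held 32.9 and 18.0 against 27.7 and 27.0, so that on both days 1 KPT-330 library lay above control. The fitted log2 fold change was −0.54 ± 0.17 (edgeR, adjusted p = 0.0283). The call was lost without 6 hours (−0.42, adjusted p = 0.0615), without day 2 (0.0641) and without day 4 (0.0611), over a range of 8.28e-06 to 0.0641. Ccnd2 ranged from 242 to 655 in control (median 358) and from 261 to 635 with KPT-330 (median 409), higher at 4 of 6 time points, with 0.22 ± 0.12 (edgeR, adjusted p = 0.18). Ccnd3 ranged from 14.03 to 29.7 in control (median 26.1) and from 13.4 to 31.5 with KPT-330 (median 27.0), with 0.18 ± 0.11 (edgeR, adjusted p = 0.203). The sign of both turned with library-size scaling (−0.052 and −0.094).

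Cdk4 ranged from 294 to 470 CPM in control (median 379) and from 166 to 384 with KPT-330 (median 261). KPT-330 was lower at 6 of 6 time points, by 0.17 to 0.29 on the log2 scale up to day 2 and by 0.63, 0.82 and 0.68 on days 3, 4 and 6. The fold change was −0.48 ± 0.11 (edgeR, adjusted p = 0.00797). Cdk6 ranged from 40.7 to 82.7 in control (median 62.2) and from 38.6 to 64.8 with KPT-330 (median 47.4), with −0.21 ± 0.11 (edgeR, adjusted p = 0.156), which passed without 6 hours (0.0476) and with library-size scaling (0.0074). Cdk2 ranged from 16.5 to 37.2 in control (median 20.2) and from 14.6 to 26.1 with KPT-330 (median 18.3). At 6 hours it stood at 37.2 in control and 18.1 with KPT-330, while on days 2 and 3 the log2 differences were 0.022 and −0.024. The fold change over all days was −0.26 ± 0.12 (edgeR, adjusted p = 0.102), and it passed with library-size scaling alone (−0.52, adjusted p = 0.00381).

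Cdkn1b ranged from 87.7 to 131 CPM in control (median 91.6) and from 51.1 to 126 with KPT-330 (median 69.7). The highest value of each condition was that of 6 hours, and KPT-330 was lower at 6 of 6 time points, with −0.39 ± 0.09 (edgeR, adjusted p = 0.00933). Cdkn2c ranged from 4.28 to 24.5 in control (median 6.96) and from 1.60 to 8.62 with KPT-330 (median 4.71), again lower at 6 of 6, with −0.69 ± 0.22 (edgeR, adjusted p = 0.0305). The largest gap was at 6 hours, 24.5 against 8.62. On day 6 the single libraries overlapped, at 1.60 and 5.14 with KPT-330 against 4.28 and 7.22 in control. The Cdkn2c call was lost in 6 alternatives, with an adjusted p of 0.0975 without 6 hours, 0.0612 without day 3, 0.0708 without day 4, 0.0559 without control replicate 2 and 0.0555 without KPT-330 replicate 1 of day 6, and 0.0542 with all barcodes within the quality limits. Cdkn1c ranged from 6.50 to 59.7 in control (median 46.7) and from 5.42 to 79.4 with KPT-330 (median 35.7), and the difference was −0.11 ± 0.18 (edgeR, adjusted p = 0.686). The KPT-330 libraries of day 6 held both 27.8 and 79.4, on either side of both controls, and without replicate 1 the difference was 0.0040.

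Rb1 ranged from 12.5 to 21.6 CPM in control (median 18.4) and from 15.04 to 35.3 with KPT-330 (median 29.5). From day 1 on every KPT-330 library lay above every control library, while at 6 hours the values were 15.8 and 15.04. The fold change was 0.64 ± 0.14 (edgeR, adjusted p = 0.00576), and it passed in each alternative run, with adjusted p up to 0.0423.

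**Figure D3:**
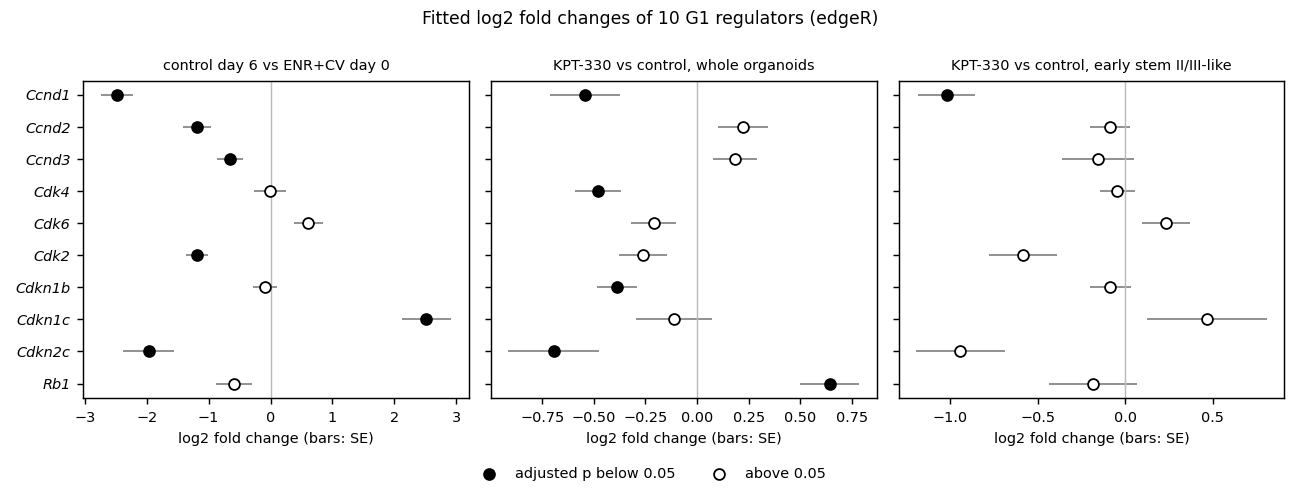
The 3 panels give the fitted log2 fold change (x axis, with its SE as a bar) of each gene (y axis) for day 6 control against day 0, for KPT-330 against control in whole organoids, and for KPT-330 against control in stem II-like and III-like cells of the first 2 days; filled points passed an adjusted p of 0.05, and the x axes differ in range. Ccnd1 lies at −2.48, −0.54 and −1.02 in the 3 panels and is the single gene filled in all of them.

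Around the members, 26 of the 31 E2F-controlled replication genes were lower with KPT-330 and none was higher, with a median log2 fold change of −0.72 against −0.0023 over all genes. Uhrf1 (−1.48), which keeps DNA methylation through replication, Pola1 (−1.11), the primase-associated polymerase, and Mcm3 (−1.09), of the replicative helicase, had the smallest p-values. Of 38 other G1/S regulators tested, 9 were lower and 4 higher, or 34.2% called in either direction, which is near the 28.6% of all genes, so the count is no result about this list. The repressor E2f7 (−1.35), cyclin A2 (Ccna2, −1.08) and E2f8 (−0.74) had the smallest p-values of those that were lower. Among the higher ones were the CDK inhibitors p21 (Cdkn1a, 0.55) and p15 (Cdkn2b, 0.73) and Fzr1 (0.38), an activator of the anaphase-promoting complex. Control libraries and libraries with KPT-330 also differed in cell make-up. On days 3 to 6, the median share of enteroendocrine-like cells was 20.4% in control (4 libraries) and 11.2% with KPT-330 (5 libraries), that of stem I-like cells 22.8% and 6.79%, that of stem III-like cells 3.99% and 0.984% that of enterocyte-like cells 3.63% and 17.2% and that of Paneth-like cells, where Cdk4 is low, 16.7% and 34.1%. At 6 hours, where the gaps of Ccnd1, Cdkn2c and Cdk2 were largest, stem III-like cells made up 54.8% of the control library and 31.7% of the KPT-330 library, and stem II-like cells 28.4% and 48.7%. The shares were closer on day 1, at 15.6% and 13.5% for stem III-like and 23.5% and 25.9% for stem II-like cells. The part of these shares in the whole-organoid results was not tested, and the same genes are given within cell types in what follows.

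Whether the effect of KPT-330 differed between days 0.25 to 2 and days 3 to 6 was tested as an interaction. No member passed, and 0% of the 12812 genes did (edgeR, 1333 at an unadjusted p under 0.05, and 56 with DESeq2). The largest late-minus-early differences were 0.63 ± 0.30 for Ccnd1 (edgeR, adjusted p = 0.488), 0.59 ± 0.37 for Cdkn1c (0.588), −0.44 ± 0.20 for Cdk4 (0.475) and 0.44 ± 0.27 for Rb1 (0.583). The smaller gap of Ccnd1 and the wider gap of Cdk4 on later days were thus not shown to exceed the spread over days and libraries.

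The third comparison looked at stem II-like and III-like cells of the first 2 days, the cells led by replication and mitotic genes. KPT-330 and control could be compared there at 3 time points with 1 library each. Its p-values thus measure how far the difference varied between those time points. Ccnd1 alone of the 10 members passed, against 1.94% of 10051 genes tested. It stood at 1.10, 0.943 and 0.926 UMIs per 10000 in control at 6 hours, day 1 and day 2, and at 0.411, 0.628 and 0.470 with KPT-330. Every control library lay above every KPT-330 library. The log2 fold change was −1.02 ± 0.16 (edgeR, adjusted p = 0.00201), and −0.68 with an adjusted p of 0.0627 without 6 hours. Cdkn2c (−0.94 ± 0.25, adjusted p = 0.0621 in edgeR) and Cdk2 (−0.59 ± 0.19, 0.135) were lower at 3 of 3 time points and did not pass, though Cdkn2c passed without day 1 (0.0102), without day 2 (0.0184) and without the count filter (0.00424). Cdk2 passed without day 1 (−0.86, 0.0304). Cdkn2c and Cdk2 are higher in stem III-like than in stem II-like cells, and at 6 hours the stem III-like share was lower with KPT-330, as given before. In stem III-like cells alone at 6 hours, control held 0.355 of Cdkn2c and 0.481 of Cdk2 per 10000 UMIs against 0.151 and 0.275 under KPT-330, while the fold changes over 4 time points were −0.71 ± 0.25 (edgeR, adjusted p = 0.374) and −0.35 ± 0.21 (0.662). Stem III-like cells are themselves of 2 clusters, both led by Mki67. Over all days the larger held 998 control and 388 KPT-330 cells and the other 94 and 140. The part of this mix was not tested. Ccnd2, Ccnd3, Cdk4, Cdkn1b and Rb1 had differences between −0.18 and −0.046, and those of Cdk6 and Cdkn1c were 0.23 ± 0.14 and 0.47 ± 0.34. In the same cells 15 of 31 E2F-controlled replication genes were lower and none higher, with a median of −0.61, led by Pola1 (−0.85), Mcm3 (−0.76) and Mcm6 (−0.71). Of 37 other G1/S regulators, 5 were lower and none higher, namely E2f8 (−0.89), E2f7 (−1.08), E2f3 (−0.76), Ccne2 (−1.60) and E2f1 (−0.92), the last 2 named after their values were seen.

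Within single cell types the members were tested in 10 types with at least 3 time points, giving 81 results of which 6 passed, 2 higher and 4 lower. By type, the share of all genes that passed was 3.86% in stem I-like, 1.23% in stem II-like, 0.339% in stem III-like, 0.195% in early secretory-like, 2.97% in early Paneth-like, 1.89% in Paneth-like, 1.9% in enteroendocrine-like and 2.02% in enterocyte-like cells, 3.15% in the Clca3/Muc2 cluster and 1.51% in the Fabp1/Ces1f cluster. A cluster of 160 KPT-330 and 3 control cells led by Mbl2 and Cyp3a13 is part of the enterocyte-like cells, in which no member passed. Ccnd2 was higher in 8 of the 10 types in which it was tested, Ccnd3 in 6 of 9, Cdk6 in 5 of 9, Cdk2 in 5 of 8 and Cdkn1c in 5 of 7. Cdkn1b was lower in 7 of 10 and Cdkn2c in 1 of 1. Ccnd1 was lower in 9 of 9, Cdk4 in 9 of 10, and Rb1 was higher in 8 of 8. In enterocyte-like cells, where Ccnd1 was not tested, it was higher with KPT-330 at 3 of 4 time points. Rb1 was not tested in stem II-like cells (lower at 2 of 3 time points) or early secretory-like cells (higher at 2 of 3). The types come from the same libraries, so these counts over types are not independent results. The Cdk4 difference was small in stem I-like (−0.018) and stem III-like cells (−0.094) and in the Fabp1/Ces1f cluster (−0.10). Ccnd1 passed in 2 types, and Cdk4 (edgeR, adjusted p of 0.0513 or more) and Rb1 (0.101 or more) in none. Other settings moved some of these. Cdk4 in the Clca3/Muc2 cluster passed with library-size scaling (edgeR, adjusted p = 0.0229), without the filter on low counts (0.0158) and without day 3 (0.022), Cdk4 in Paneth-like cells at resolution 0.8 (0.0411) and Rb1 in the Clca3/Muc2 cluster without the filter (0.0418). Ccnd1 passed in stem III-like cells without the filter (0.00897), with at least 50 cells (0.0113) and without day 3 (0.0113), in stem I-like cells without the filter (0.0224), by marker score (0.00754) and at resolution 0.8 (0.0488), and in early Paneth-like cells with library-size scaling (0.029) and log-normalized clustering (0.05).

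**Figure D4:**
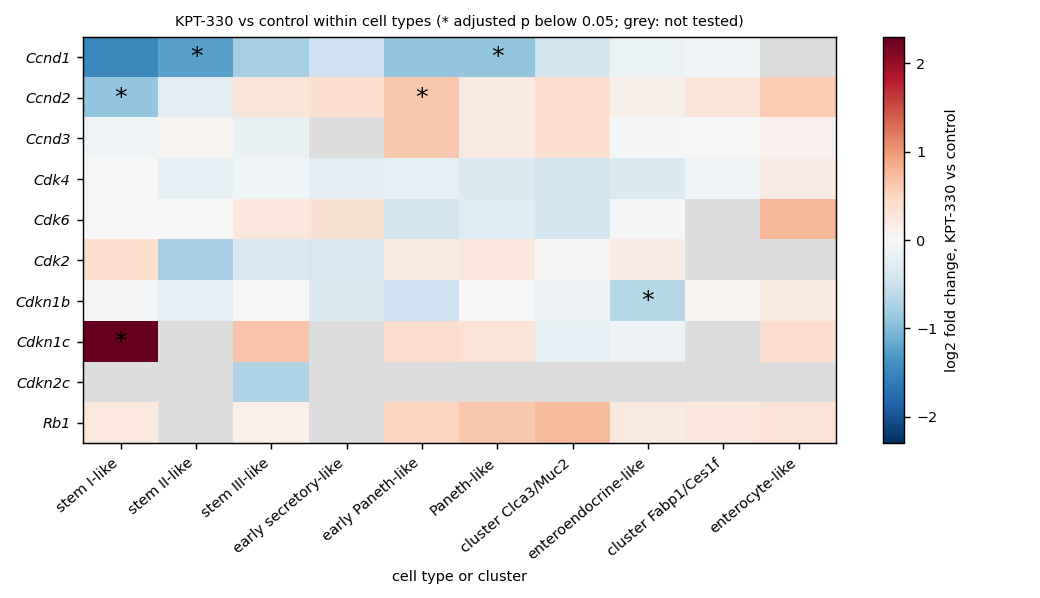
The heat map gives the log2 fold change of KPT-330 against control for each gene (rows) within 10 cell types or clusters (columns), with blue lower and red higher with KPT-330, an asterisk where the adjusted p was below 0.05 and grey where a gene was not tested. The 6 asterisks are on Ccnd1 in stem II-like and Paneth-like cells, Ccnd2 in stem I-like and early Paneth-like cells, Cdkn1c in stem I-like cells and Cdkn1b in enteroendocrine-like cells.

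Stem I-like cells, named from markers such as Lgr5, Axin2 and Smoc2 and led by Notum and Clu, held the largest log2 fold change of a member among the 81 results. Cdkn1c stood at 0.128 UMIs per 10000 in control and 0.0641 with KPT-330 on day 2, and at 0.184 in control against 0.206 and 1.08 with KPT-330 on day 3. On day 4 it stood at 0.587 against 3.07, and on day 6 at 1.28 and 1.90 in control against 9.34 with KPT-330. The conditions were close on day 2 and lay apart on days 4 and 6. The log2 fold change was 2.29 ± 0.23 (edgeR, adjusted p = 2.02e-08). DESeq2 gave 1.80 ± 0.66 with an adjusted p of 0.174, the one alternative that lost the call, over a range of 1.67e-39 to 0.174. The day 6 value rests on 196 UMIs in 68 cells, 5 of which held 48.0% of them, and KPT-330 replicate 1 of day 6 had too few cells to enter. In libraries without KPT-330, Cdkn1c had its highest mean in enteroendocrine-like cells, though not beyond the spread of the paired difference to stem I-like cells. With KPT-330 it stood at up to 2.96 in enteroendocrine-like cells (7 libraries), below the 9.34 of stem I-like cells on day 6. Enteroendocrine markers were read in the stem I-like cells: of 8 tested, 1 (Aplp1) was higher with KPT-330, none was lower, and their median log2 fold change was −0.14. Of the other marker lists in these cells, the stem I markers Prox1, which enteroendocrine cells also express, and Cfi were higher, as were Clca4, Akr1c19, Sis, Ang, Mmp7, Itln1 and Nupr1, while Cps1, Lgals4 and Bace2 were lower. The part of these shifts in the results of stem I-like cells was not tested.

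In those cells Ccnd2 was lower with KPT-330. It stood at 5.06 UMIs per 10000 in control and 3.11 with KPT-330 on day 2, at 3.27 against 2.06 and 1.53 on day 3, at 3.81 against 1.67 on day 4, and at 4.42 and 3.75 against 1.90 on day 6. Every control library lay above every KPT-330 library, with a log2 fold change of −0.89 ± 0.14 (edgeR, adjusted p = 5.49e-05). With cells clustered on log-normalized counts the difference was −0.24 with an adjusted p of 0.668 in edgeR. Ccnd1 in the same cells had −1.48 ± 0.47 (edgeR, adjusted p = 0.0713), lower at 4 of 4 time points, and Cdk4 and Cdk6 had −0.018 ± 0.12 and 0.011 ± 0.13. Stem I-like cells are thus the one type with a member called in each direction.

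Enteroendocrine-like cells, the type with the highest Cdkn1b, had less of it with KPT-330. Control libraries stood at 1.40, 1.67, 2.02 and 2.27 UMIs per 10000 on days 1 to 4 and at 2.82 and 2.43 on day 6. KPT-330 libraries stood at 1.29 and 0.927 on days 1 and 2, at 1.40 and 1.12 on day 3, at 1.49 on day 4, and at 1.22 and 1.39 on day 6. The control value was higher on each later day, whereas the KPT-330 values stayed at or below 1.49. The log2 fold change was −0.66 ± 0.12 (edgeR, adjusted p = 0.00714, and 0.139 without day 6). These cells are of 2 clusters in different proportions. The cluster led by Neurog3, the factor of endocrine progenitors, held 870 control and 347 KPT-330 cells, and the one led by the hormone genes Gcg and Cck held 649 and 511. Of 10 enteroendocrine markers, Ghrl was higher and Chgb and Neurog3 lower with KPT-330 in these cells. In the Gcg-led cluster Cdkn1b was 2.56 to 2.94 in 4 control libraries and 1.24 to 2.13 in 5 with KPT-330, with no overlap, and lower at 3 of 3 time points. In the Neurog3-led cluster, on the days both conditions had enough cells, it was 1.34 to 1.73 against 0.797 to 1.34, lower at 3 of 4 time points and overlapping at the edge.

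The fall of Ccnd1 in stem II-like cells alone was from 1.24, 1.14 and 0.788 UMIs per 10000 at 6 hours, day 1 and day 2 to 0.360, 0.667 and 0.507. The control values all lay above the KPT-330 values, with −1.25 ± 0.21 (edgeR, adjusted p = 0.00107). The call was lost without 6 hours (−0.72, 0.411), with DESeq2 (0.497) and with log-normalized clustering (0.0635). In these cells Mmp7, Tff3, Gm15284 and Nupr1 of the Paneth lists, Sis and Cenpe were higher with KPT-330 and no listed marker was lower, and their part in the result was not tested. In Paneth-like cells, which do not divide, Ccnd1 was 0.177 to 0.420 in 5 control libraries and 0.0266 to 0.184 in 6 with KPT-330, lower at 4 of 4 time points though the ranges met across days, with −0.90 ± 0.23 (edgeR, adjusted p = 0.0443). That call was lost in 7 alternatives, without day 2 (0.0691), day 4 (0.2) or day 6 (0.207) among them. In the same cells the stem markers Ifitm3 and Cps1 were lower with KPT-330, with a median of −0.47 over 10 stem I markers, as were Rnase1, Ccl9, Gm14851 and Neurog3, while the goblet markers Clca3 and Fer1l6 and the Paneth-list markers Mmp7 and Nupr1 were higher. Their part in the Ccnd1 result was not tested. In early Paneth-like cells Ccnd2 was higher with KPT-330 at 4 of 4 time points, at 3.13 in control against 3.19 on day 2, 1.31 against 1.83 and 2.04 on day 3, 1.61 against 2.31 on day 4 and 1.81 against 4.27 on day 6. The day 6 libraries held 20 and 28 such cells. The fold change was 0.62 ± 0.16 (edgeR, adjusted p = 0.0159), and the call was lost in 9 alternatives, without day 3, day 4 or day 6 among them. In these cells 4 of 10 goblet markers, 5 of 10 Paneth markers and 4 of 10 early Paneth markers were also higher with KPT-330 and 5 of 10 stem I markers were lower. Of the other listed markers, the early Paneth marker Rnase1, Cps1 and Dll1 were lower, and Fabp1, Lgals4, Gsta1, Sis and Fcgbp were higher. Early Paneth-like cells are also of 2 clusters in different proportions. The cluster led by Ccl9 and Lyz1 held 274 control and 596 KPT-330 cells, and the one led by Creb3l1 and Rnase1 held 260 and 236. The part of these shifts and of the cluster proportions in the Ccnd2 result was not tested. Whether Ccnd2 moved differently in early Paneth-like and stem I-like cells was not tested.

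**Figure D5:**
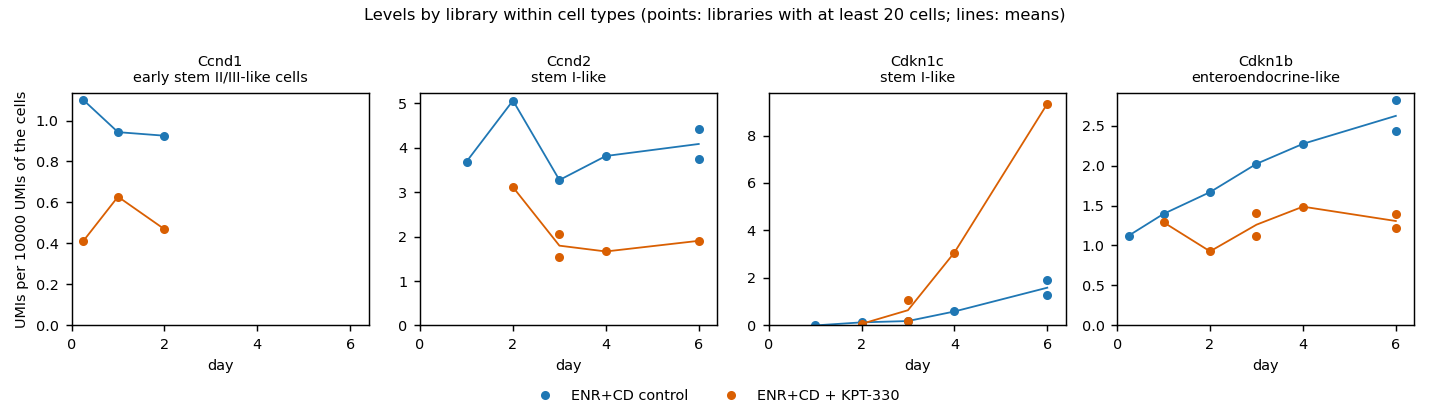
UMIs per 10000 UMIs (y axis, from 0) are plotted by day (x axis) for 4 of the results that passed, with a point for each library of at least 20 cells and lines through the means of a day. Control lies above KPT-330 throughout for Ccnd1 and Ccnd2, the gap in Cdkn1c opens on days 4 and 6, and that in Cdkn1b is wider from day 2 on.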

How the data were processed

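The authors aligned Seq-Well S3 reads to mm10 with STAR and the Drop-seq pipeline and deposited UMI counts per gene and cell, not normalized, for each of 17 libraries of mouse organoids. The use of strand in counting is not given in the sources used here. Cells were those named in the authors' merged table (19877 of 26229 barcodes), which had at least 500 detected genes, at most 30000 UMIs and at most 35% of UMIs from mitochondrial genes and had passed a housekeeping filter and the removal of doublets. No doublet caller was run here. The deposited UMI counts of these cells were clustered with Seurat 5.3.0 (SCTransform, 9 principal components, resolution 0.45) without the members and pathway genes, and clusters were named from marker lists that the study had chosen on these samples. Counts were summed per library, or per library and type with at least 20 cells, and tested with edgeR 4.0.16 (quasi-likelihood, TMM, low-count filter, Benjamini-Hochberg over all genes tested, threshold 0.05), with time point as a term for KPT-330 against control and 1 group per condition and day for day 6 against day 0. SE values are the log2 fold change over the root of F. DESeq2 1.42.0 was an alternative, and the tests were tried on simulated data.

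All 10 members were named in each comparison. Up to 3 genes with the smallest p in each direction were named per list, and the 3 genes with the highest Pearson's r were open to naming. The members and lists were chosen with earlier results of these data known. Gene positions are from the GENCODE annotation of GRCm38. Alternatives were other scalings, filters, cell sets and clusterings, a replicate block and leaving out libraries or days. Libraries held 3458887 to 12433109 UMIs, and low counts in a cell type cannot be told from free RNA.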

Additional observations from a re-analysis of the deposited data

Results flagged for a closer look

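Of 130 groups of 4 to 10 libraries, 18 had 1 library far from the others by Dixon's criterion, where chance gives about 1 in 20 among alike libraries. The groups mix days and some also mix media, so that rate cannot be applied to them. No explanation was tested. In whole organoids, Ccnd3 was lowest in the KPT-330 library of 6 hours, at 13.4 CPM (counts per 1000000 UMIs, TMM-scaled) (next 23.1), and Cdkn1b and Cdkn2c were highest in the control library of 6 hours, at 131 (next 102) and 24.5 (next 9.66).

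The other 15 are levels within a cell type of the libraries without KPT-330, in UMIs per 10000. ENR+CV replicate 2 was the high library for Ccnd1 in enteroendocrine-like cells (1.36, next 0.250) and for Ccnd2 in enteroendocrine-like (9.28, next 3.94), early secretory-like (17.9, next 6.22) and stem II-like cells (12.1, next 9.07). Control replicate 1 of day 6 was the high library in the Fabp1/Ces1f cluster for Ccnd2 (18.2, next 8.68), Cdk4 (2.23, next 1.62) and Cdk6 (0.591, next 0.193). Cdk2 in stem II-like cells was high in control replicate 2 of day 6 (0.708, next 0.478). The day 1 control was high in stem I-like cells for Cdkn1b (1.71, next 1.23) and Cdkn2c (0.165, next 0.0641). Cdkn2c was also high in enteroendocrine-like cells of the 6 hour control (0.4996, next 0.137), in Paneth-like (0.0839, next 0.0291) and enterocyte-like cells (0.0263, others 0) of the day 2 control, and in the Clca3/Muc2 cluster of the day 4 control (0.0416, next 0.0246), where Ccnd3 in enterocyte-like cells was high too (0.311, next 0.200).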

How the results depend on the processing

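Beside the main values, 815 of the values for single members recomputed under the alternatives kept their direction and side of the threshold, 38 lost a call, 34 gained one and 21 turned sign. The number of members called with KPT-330 was 5 and ran from 3 to 5 when libraries or days were left out, with 7 under library-size scaling, which adds Cdk2 and Cdk6. For day 6 against day 0 it was 6, from 4 to 6 over left-out libraries and 7 without the filter. In early stem II-like and III-like cells it was 1, with 0 to 3 over left-out days and 2 without the low-count filter. Within types it was 6, with 3 to 8 over left-out days, 11 without the filter and 2 with DESeq2.

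With the replicate block 11 member-by-type results were called, 5 members with KPT-330 and 6 for day 6 against day 0. The 6 gained within types were Cdk4 in the Clca3/Muc2 cluster (adjusted p = 0.0142) and Paneth-like cells (0.0485), Cdk6 in the Clca3/Muc2 cluster (0.0205) and early Paneth-like cells (0.0414), and Ccnd1 in stem III-like (0.00726) and early Paneth-like cells (0.0116). Stem II-like cells could not be fitted with the block, since their replicate numbers follow the day. The replicate numbers are not shown to pair libraries: deviations of the day 6 libraries with the same number correlated at r = 0.365 over 13455 genes, and those of day 0 with day 6 at 0.103.

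All values that turned sign were uncalled. With library-size scaling, KPT-330 against control became −0.052 for Ccnd2 and −0.094 for Ccnd3, and late against early became −0.066 for Ccnd2, −0.17 for Ccnd3, −0.012 for Cdk2 and −0.20 for Cdkn2c. Cdkn1c ran from −0.31 without KPT-330 replicate 2 of day 6 to 0.0040 without replicate 1. In early stem II-like and III-like cells Ccnd2 became 0.0063 with labels by marker score and ran from −0.26 without day 1 to 0.082 without 6 hours, Cdk4 became 0.019 without 6 hours, and Rb1 ran from −0.39 without 6 hours to 0.010 without day 2. Ccnd2 became −0.11 in enterocyte-like cells with labels by score and 0.068 in stem II-like cells with log-normalized clustering. For day 6 against day 0, Cdk4 became 0.035 without the filter, 0.0013 with the replicate block and 0.17 without control replicate 1, and ran from −0.27 without ENR+CV replicate 1 to 0.26 without replicate 2, between which Cdkn1b ran from −0.25 to 0.062. Cdkn2c, late against early, became −0.029 without KPT-330 replicate 1 of day 3, −0.054 without control replicate 1 of day 6, and ran from −0.13 to 0.27 without KPT-330 replicate 2 or 1 of day 6. The causes were not tested.

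Over all genes, library-size scaling gave 470 higher and 4900 lower genes with KPT-330, against 1841 and 1820, and 1923 higher and 2852 lower for day 6 against day 0, against 2649 and 2719. Over the types it gave 655 higher and 1216 lower results, against 993 and 715, and in early stem II-like and III-like cells 79 and 96, against 114 and 81. There 195 genes were called, 27 with DESeq2, 86 with labels by score, 104 at resolution 0.8, 297 with log-normalized clustering, 394 without the filter and 56 to 333 over left-out days. With KPT-330 in whole organoids 3661 were called, and 2092 without day 3. For day 6 against day 0 the 5368 calls became 3398 without control replicate 1. Over the types the 1708 calls became 1077 with DESeq2, 3145 without the filter, 3004 with the block and 1085 without day 4. The late against early difference had 0 calls, 349 without the filter. Most time points have 1 library per condition, and Cdkn2c was tested within 1 type only.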
